A study of Mus musculus with 84 samples.

Results

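Airway-projecting vagal sensory neurons of the mouse were examined for transcripts of 8 receptors of 2 neurotrophic factor families. Ntrk2, Ntrk3 and Ngfr belong to the receptors for brain-derived neurotrophic factor (BDNF) and its relatives, the neurotrophins. Ret and Gfra1, Gfra2, Gfra3 and Gfra4 form the receptor system for the glial cell line-derived neurotrophic factor (GDNF) family. These genes were taken by name from the 50686 genes of the count table, and all 8 had a row. They were read in the 72 of 84 neurons that had 5000000 or more total counts.

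The study collected single neurons from the vagal sensory ganglia of C57BL/6 mice after the lipophilic dye DiI (2%) had travelled back from the airways and lungs along their axons. The mRNA of each neuron was amplified and sequenced on an Illumina NextSeq with 76-base reads. All neurons form 1 group, with no treatment, and the labels used here name neither the animal nor its age. For that reason neurons were not treated as replicates, no test was run, and every comparison below is a description of these neurons.

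Neurotrophins signal through Trk receptor tyrosine kinases, each with its preferred ligands, and through the shared receptor p75, which binds all neurotrophins. Ligands of the GDNF family bind a GFRα co-receptor held to the membrane by a lipid anchor, and the pair then engages the receptor tyrosine kinase Ret, so that a cell needs Ret and at least 1 fitting co-receptor to answer through Ret. In the vagal ganglia, neurons of the nodose ganglion arise from placodes and depend largely on BDNF for survival in development, while jugular neurons arise from neural crest. Prdm12, a transcription factor of neural crest-derived nociceptors, marks the jugular side, and P2rx2, an ATP-gated ion channel subunit, marks many nodose neurons.

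Detection meant a level of at least 10 CPM (counts of a gene in every 1000000 counts of that neuron), which was 67.3 counts in the shallowest neuron kept. The 72 neurons had 6732279 to 20668832 counts and 841 to 8870 detected genes, with a median of 5855.5. Prdm12 was detected in 7 neurons, P2rx2 without Prdm12 in 39 and neither marker in 26, and no neuron had both. The median number of detected genes was 8091 in Prdm12 neurons, 7275 in P2rx2 neurons and 3361.5 in neurons with neither marker. Since the classes differed so much in gene number, the comparisons between classes are, for most genes, also given within the 38 neurons with 5000 or more detected genes, of which 6 had Prdm12, 26 had P2rx2 and 6 had neither. All 10 neuronal markers examined were detected in at least 1 neuron of every class, and their summed level had a median of 15141 CPM. Transcripts of satellite glia were present as well, with a median sum over 7 markers of 1355 CPM and a range of 9.01 to 56618 CPM.

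Ntrk2, which encodes TrkB, the receptor for BDNF and NT-4, lies at chr13:58806569-59133970 on the plus strand of GRCm38. It was detected in 59 of 72 neurons, or 81.9% (exact 95% interval 71.1 to 90.0%). Its level ran from 0.0812 CPM through a median of 165 CPM to 2059 CPM, and 38 neurons had 100 CPM or more. The highest values were 2059 CPM in neuron AM004 and 1715 CPM in AM078, both without either marker and with under 5000 genes. Ntrk2 makes full-length and truncated receptors from 1 gene, and gene counts do not separate them.

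Ntrk3, which encodes TrkC, the receptor for NT-3, lies at chr7:78175959-78738012 on the minus strand. It was detected in 26 neurons, or 36.1% (25.1 to 48.3%), and the median over all 72 was 2.72 CPM. Its distribution was split: 17 of the 26 neurons had 100 CPM or more, with a highest value of 1322 CPM, while 7 of the 72 had no count at all. No neuron had between 9.75 and 17.2 CPM, so the detection threshold fell at the lower edge of a gap. Just below it, 6 neurons had 5 to 10 CPM.

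Ngfr, which encodes p75, lies at chr11:95568818-95587735 on the minus strand. It was detected in 53 neurons, or 73.6% (61.9 to 83.3%), with a median of 83.7 CPM and a highest value of 975 CPM. Glial cells of peripheral ganglia also express this gene, as they do truncated Ntrk2 and some co-receptors of the GDNF family. The 53 Ngfr neurons had a median satellite glia sum of 1322 CPM and the 19 others 1538 CPM, and the Spearman correlation of Ngfr with that sum over 72 neurons was -0.26. The sum over 5 Schwann cell markers went the other way, with 756 CPM against 362 CPM and a correlation of 0.16, or -0.05 in neurons with 5000 or more genes. For Ntrk2 the correlation was 0.14 with the satellite glia sum and 0.29 with the Schwann cell sum, which was 756 CPM at the median Ntrk2 neuron and 45.3 CPM at the median of the 13 others. In neurons with 5000 or more genes these correlations of Ntrk2 were 0.09 and -0.07. The part of glial RNA in the levels of both receptors was not tested.

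Ret lies at chr6:118151745-118197718 on the minus strand. It was the receptor detected in most neurons, 62 of 72 or 86.1% (75.9 to 93.1%), with a median of 318 CPM and a highest value of 1363 CPM. In the neurons with 5000 or more genes it was detected in 38 of 38, with 12.5 CPM in the lowest and a median of 393 CPM. The Spearman correlation of Ret with the satellite glia sum was -0.40 over 72 neurons and -0.49 over these 38, and with the Schwann cell sum it was 0.23 over both. The Schwann cell sum was 719 CPM at the median Ret neuron and 207 CPM at the median of the 10 others, and its part in the Ret level was not tested.

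The 4 co-receptors were scarcer. Gfra4, whose product prefers persephin, was detected in 37 neurons (51.4%, 39.3 to 63.4%) with a highest value of 180 CPM. Gfra1, the GDNF co-receptor, was detected in 35 (48.6%, 36.6 to 60.7%) and reached 506 CPM. Gfra2, the neurturin co-receptor, was detected in 29 (40.3%, 28.9 to 52.5%) and reached 752 CPM.

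Gfra3, the artemin co-receptor of many nociceptors, was detected in only 4 of 72 neurons (5.56%, 1.53 to 13.6%). These held 480 CPM in AM021, 282 CPM in AM295, 38.5 CPM in AM296 and 27.6 CPM in AM216. AM021 and AM216 had P2rx2, AM296 had Prdm12 and AM295 had neither. The next neuron had 8.05 CPM, and 51 of the 72 had no Gfra3 count.

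Gfra1 lies at chr19:58235604-58455909, Gfra3 at chr18:34689898-34720387 and Gfra4 at chr2:131039632-131043088, all on the minus strand, and Gfra2 at chr14:70890120-70979838 on the plus strand. An antisense gene, Gm16277, overlaps 7.60% of the exon bases of Gfra1, and the microRNA gene Mir6973b overlaps 3.69% of those of Gfra4. The strand setting of the counting is not given in the sources used here, so reads in the Gfra1 overlap cannot be assigned.

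**Figure D1:**
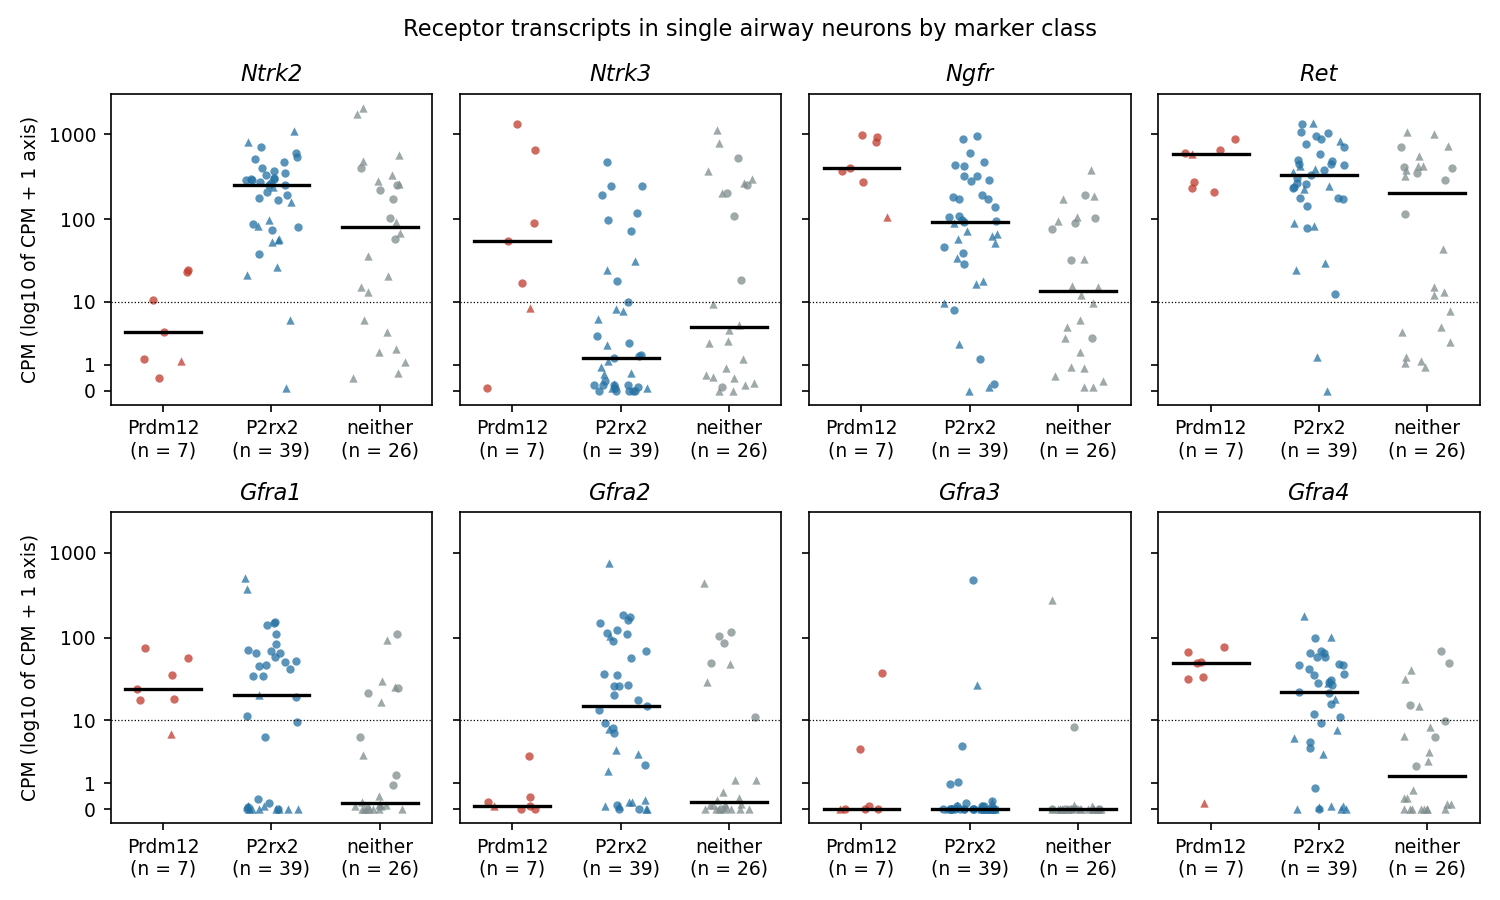
CPM of the 8 receptors in each of 72 neurons (y axis, log10 of CPM + 1) by marker class (x axis), with circles for neurons with 5000 or more detected genes, triangles for the others, a bar at the median and a dotted line at 10 CPM. Ntrk2 stayed at or below 24.6 CPM in the 7 Prdm12 neurons, where Ngfr ran from 108 to 975 CPM and Gfra2 reached at most 3.15 CPM.

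Levels of different genes were compared per kilobase of annotated exon. On this scale the median over 72 neurons was 47.1 CPM per kb for Ret, 24.3 for Ngfr, 8.55 for Ntrk2, 5.35 for Gfra4, 1.46 for Gfra1, 0.767 for Gfra2, 0.0901 for Ntrk3 and 0 for Gfra3. The quartiles of neighbours overlapped, with Ret from 12.3 to 83.4 and Ngfr from 2.77 to 56.1 CPM per kb. Ret was above Ngfr in 43 of the 64 neurons in which at least 1 of the 2 was detected, and above Ntrk2 in 58 of 67. Gfra1 and Gfra2 could not be ordered: Gfra1 was the higher in 21 and Gfra2 in 24 of the 45 neurons with either.

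Most neurons lacked Ntrk3, and its annotated exons span 30170 bases, against 19292 for Ntrk2 and 6763 for Ret. Among the neurons in which each was detected, the median was 6.81 CPM per kb for Ntrk3 and 12.6 for Ntrk2. The rare Gfra3 neurons had the highest such median, 80.2 CPM per kb over 4 neurons, against 56.5 for Ret over 62. The 4 values lay far apart, at 240 in AM021, 141 in AM295, 19.3 in AM296 and 13.8 in AM216. The values of AM296 and AM216 were below the lower quartile of Ret, 31.9, and AM295 had only 1446 detected genes. Gfra3 and Ret could thus not be ordered by these medians.

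**Figure D2:**
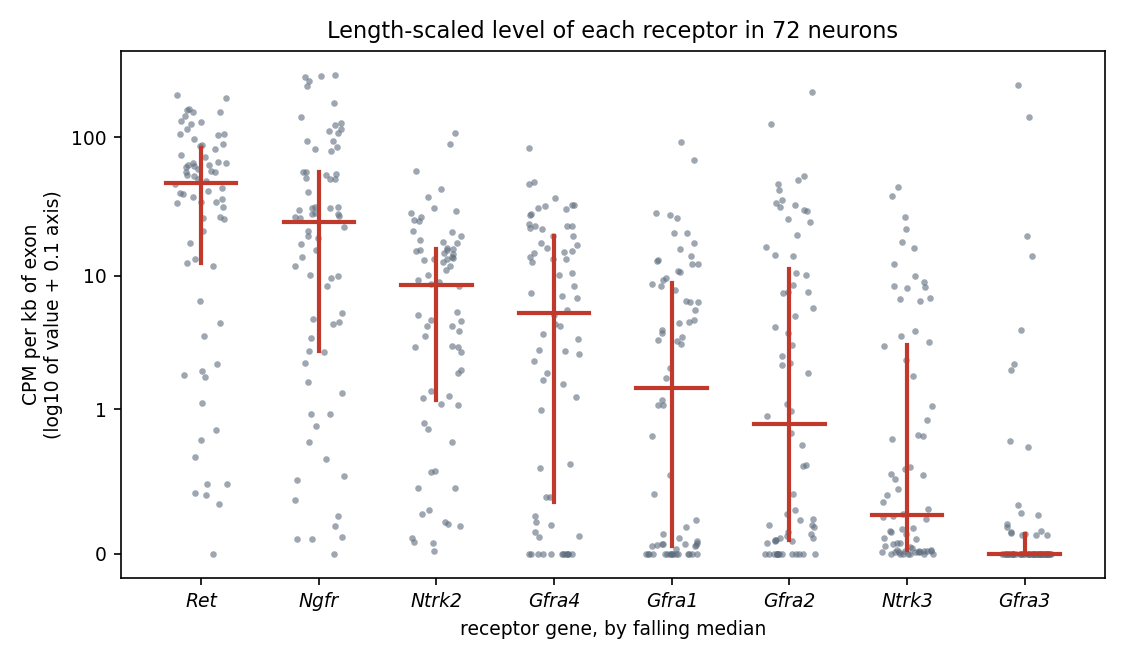
CPM per kb of exon of each receptor in 72 neurons (y axis, log10 of value + 0.1), ordered by median (x axis), with a line at the median and a bar over the quartiles. The medians step down from 47.1 for Ret to 0 for Gfra3, and the points of neighbouring genes overlap.

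Detection followed the number of genes found in a neuron. Gfra1 was detected in 28 of 38 neurons with 5000 or more genes and 7 of 34 with fewer, Gfra2 in 24 and 5, and Gfra4 in 30 and 7. These 3 of the 8 receptors were higher by 40 percentage points or more, the size used here to name a difference, as were 53.8% of the 11351 genes detected in at least 5 neurons. Ntrk2 was detected in 35 of 38 and 24 of 34, and Ret in 38 of 38 and 24 of 34. The part of incomplete capture of RNA in the missing receptors was not tested.

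The neurons carried several receptors at once, with a median of 5 of the 8 and a range of 0 to 7. The median was 6 in neurons with 5000 or more genes and 3 in the others. Ntrk2, Ngfr and Ret were detected together in 46 of 72 neurons (63.9%, 51.7 to 74.9%). The 4 neurons with none of the 8, AM002, AM278, AM289 and AM302, had 1102 to 3075 detected genes. They were neuronal by their markers, with 94.2 to 2218 CPM of Snap25, a synaptic vesicle fusion protein, and 2739 to 13799 CPM of Stmn2, a growth cone protein.

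**Figure D3:**
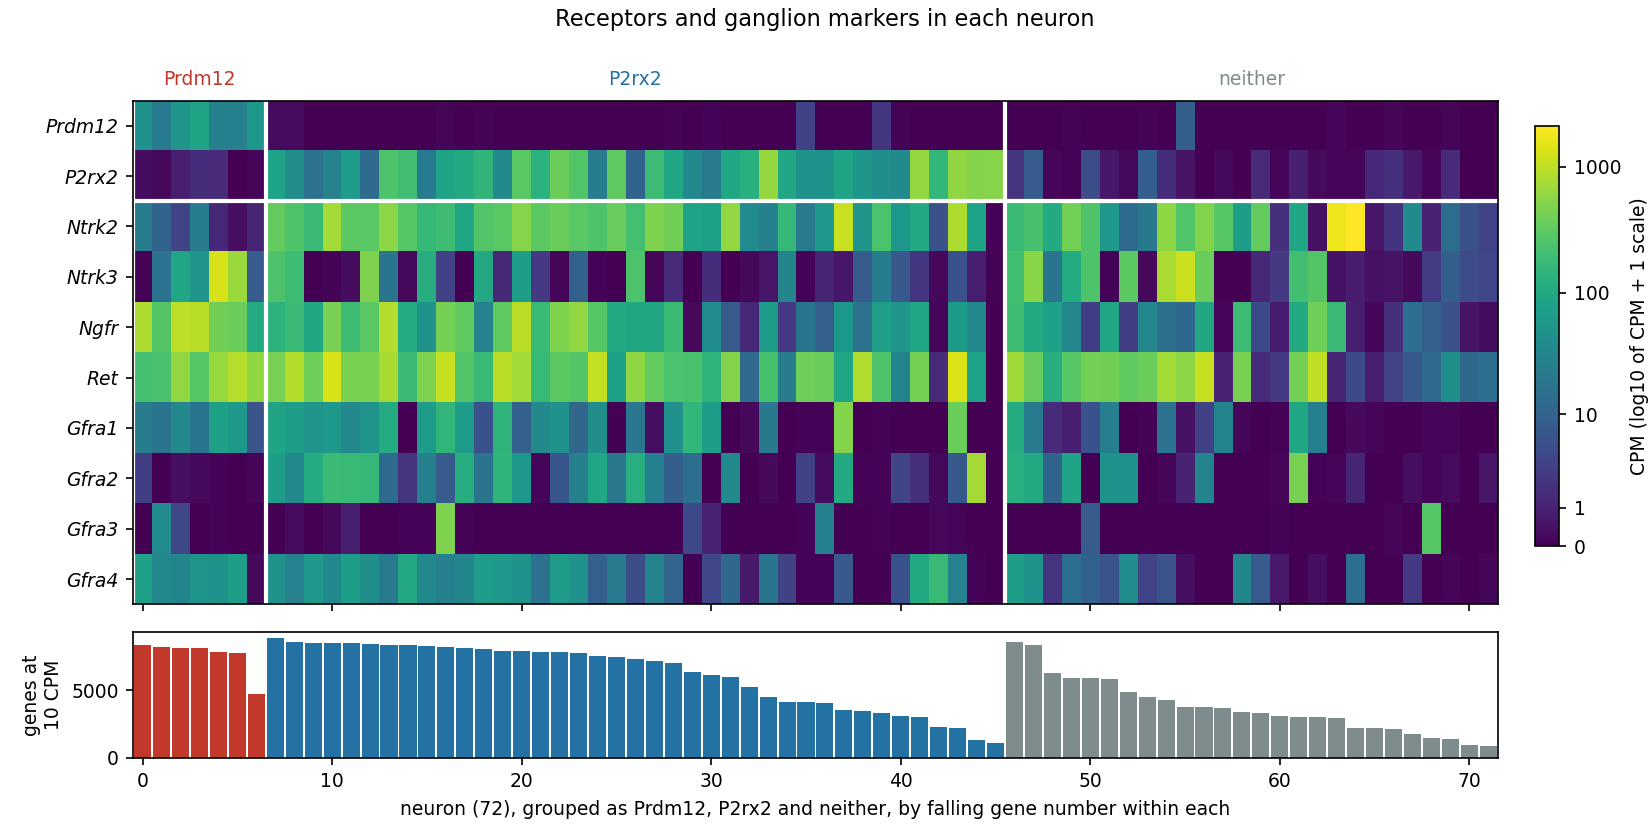
CPM (colour, log10 of CPM + 1) of Prdm12, P2rx2 and the 8 receptors (rows) in 72 neurons (columns), grouped by marker class and ordered by falling number of detected genes, which the bars below show. Ret is present in all 38 neurons with 5000 or more genes, while Gfra3 appears above 10 CPM in 4 columns.

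Within the neurotrophin receptors, Ntrk2 was detected without Ntrk3 in 37 neurons, both in 22, Ntrk3 without Ntrk2 in 4 and neither in 9. Of the 4 neurons with Ntrk3 as the single Trk gene examined, 3 had Prdm12 and 1 had neither marker. Over all neurons kept, Ntrk3 was detected in 22 of 59 Ntrk2 neurons (37.3%) and 4 of 13 others (30.8%). With 5000 or more genes it was detected in 15 of 35 Ntrk2 neurons and 3 of 3 others. These 3 neurons all had Prdm12. Under 5000 genes, 8 neurons had Ntrk3, of which 1 was among the 10 without Ntrk2 and the rest among the 24 with it. The small difference over all neurons thus joined opposite directions in the sets by gene number. Ngfr was detected with Ntrk2 or Ntrk3 in 52 of its 53 neurons, and the exception was the Prdm12 neuron AM304.

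The 26 Ntrk3 neurons were spread over the classes, with 5 in the Prdm12, 10 in the P2rx2 and 11 in the neither class. Their median Ntrk3 level was 91.2 CPM with Prdm12, 108 CPM with P2rx2 and 270 CPM with neither, and of the last 10 of 11 had 100 CPM or more. Per kb of exon, Ntrk3 exceeded Ntrk2 in 5 of 5, 1 of 10 and 5 of 11 of them. Among the 63 neurons with either gene, Ntrk3 was the higher in 11 on this scale, and in 8 per kb of the longest transcript.

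**Figure D4:**
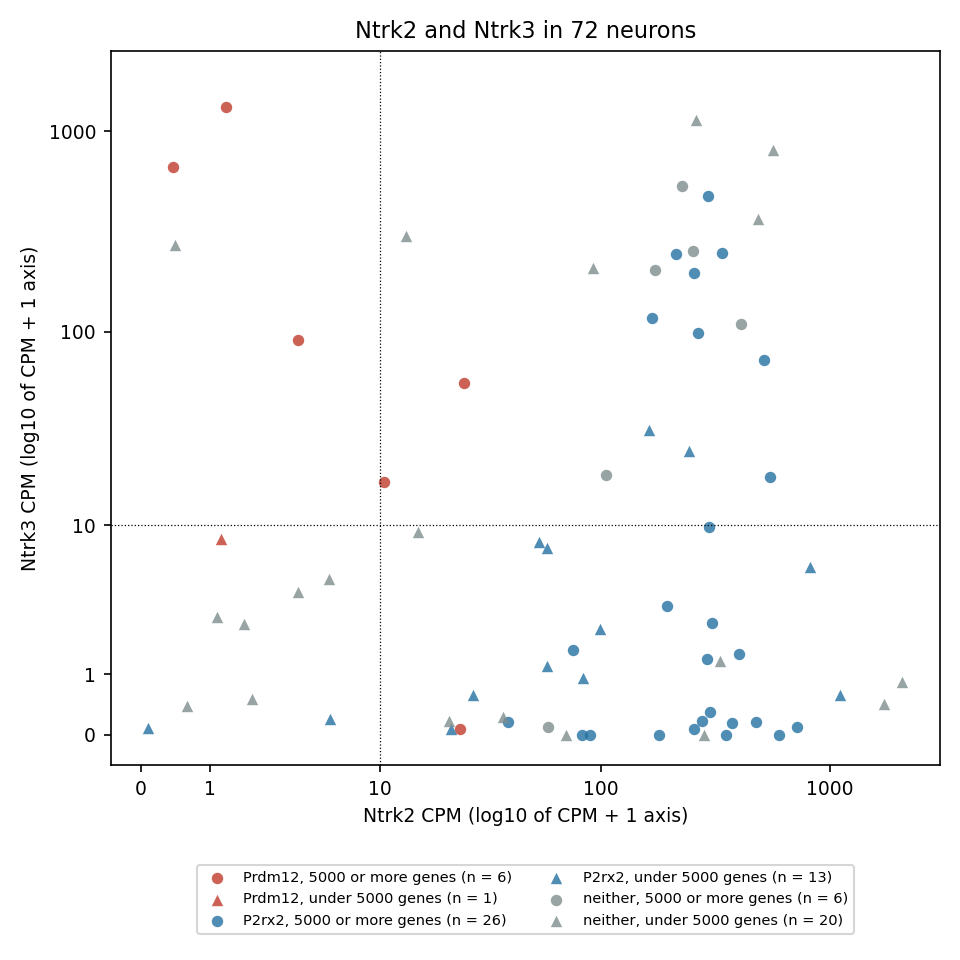
Ntrk2 (x axis) against Ntrk3 (y axis), both in CPM on a log10 of CPM + 1 axis, in 72 neurons coloured by marker class, with dotted lines at 10 CPM. The Prdm12 neurons lie at the left, at 0.385 to 24.6 CPM of Ntrk2, and 22 neurons lie above both lines.

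Within the GDNF family receptors, 49 of the 62 Ret neurons had at least 1 co-receptor gene (79%, 66.8 to 88.3%). In neurons with 5000 or more genes the count was 36 of 38, and with fewer genes 13 of 24. A co-receptor without Ret was found in 3 of 52 neurons with a co-receptor, none of them with 5000 or more genes. Among the Ret neurons, 13 had no co-receptor, 11 had 1, 23 had 2 and 15 had 3, and no neuron had 4.

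The combination of Gfra1, Gfra2 and Gfra4 was found in 13 Ret neurons, Gfra1 with Gfra4 in 10, Gfra2 with Gfra4 in 7 and Gfra1 with Gfra2 in 6. Single co-receptors were less common, with 3 neurons each for Gfra1, Gfra2 and Gfra4 and 2 for Gfra3. None of the 4 Gfra3 neurons had Gfra2, and the other 2 had Gfra1 and Gfra4. The median Ret level was 19.8 CPM in the 20 neurons with no co-receptor, 161 CPM in the 14 with 1, 328 CPM in the 23 with 2 and 453 CPM in the 15 with 3. The ranges overlapped widely, reaching 846 CPM with none and starting at 232 CPM with 3, and the median number of detected genes went from 3182 to 8359 across the same steps. With 5000 or more genes the medians were 213 CPM in 2 neurons with none, 142 CPM in 3 with 1, 324 CPM in 18 with 2 and 453 CPM in 15 with 3. Under 5000 genes they were 19.8 CPM in 18 neurons with none, 362 CPM in 11 with 1 and 328 CPM in 5 with 2. Within neither set did the median rise at every step.

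**Figure D5:**
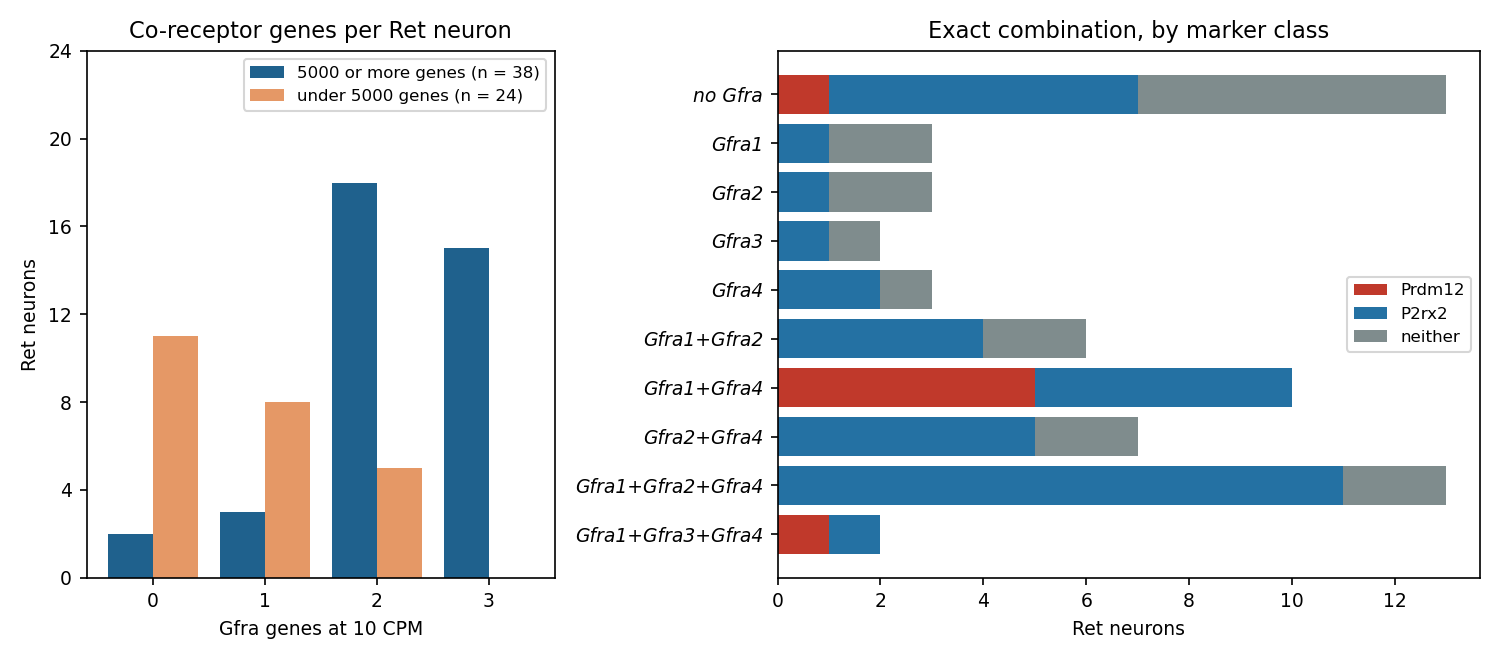
Number of Ret neurons (left, y axis) by how many co-receptor genes were detected (x axis), for neurons with 5000 or more and under 5000 genes, and number of Ret neurons (right, x axis) with each exact co-receptor combination (y axis), coloured by marker class. Gfra1 with Gfra4 holds 5 of the 7 Prdm12 neurons, and Gfra1, Gfra2 and Gfra4 together hold 11 P2rx2 neurons.

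Across the families, all 29 Gfra2 neurons had both Ntrk2 and Ret, whereas 0 of 13 neurons without Ntrk2 had Gfra2. Of the 11351 genes, 4.06% were detected in every Gfra2 neuron. Among neurons without Gfra2, Ntrk2 was detected in 30 of 43 and Ret in 33 of 43. All 26 Ntrk3 neurons had Ret, as 5.64% of genes were detected in every Ntrk3 neuron, against 36 of 46 neurons without Ntrk3. Among the 38 neurons with more genes, all of which had Ret, Ntrk2 was detected in 24 of 24 Gfra2 neurons and 11 of 14 others, and Ntrk3 in 12 of 24 and 6 of 14. Of the 13 neurons without Ntrk2, 10 had under 5000 genes and the other 3 all had Prdm12. Ntrk2 was detected in 32 of 32 neurons with 5000 or more genes and no Prdm12, so its detection there did not differ with Gfra2.

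Gfra1 and Gfra4 were detected more often in Ngfr neurons, by a margin that many other genes also reached. Gfra1 was detected in 33 of 53 Ngfr neurons and 2 of 19 others, a difference of 51.7 points, and Gfra4 in 33 of 53 and 4 of 19, a difference of 41.2 points, while 22.5% of all genes were higher by 40 points or more in Ngfr neurons. In the neurons with 5000 or more genes, Gfra4 was detected in 29 of 34 with Ngfr and 1 of 4 without, and Gfra1 in 27 of 34 and 1 of 4, where 19.3% of genes passed in that direction. The comparison there rests on 4 neurons without Ngfr.

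The 7 Prdm12 neurons differed from the 65 others in which receptors they carried. Ntrk2 was at 3.84, 24.6, 1.35, 23.5, 10.5, 0.385 and 1.24 CPM in AM011, AM013, AM228, AM237, AM296, AM303 and AM304. Every one of these values was below the median of the other neurons, 195 CPM, and the others ran from 0.0812 to 2059 CPM. Ntrk2 was detected in 3 of 7 Prdm12 neurons and 56 of 65 others, a difference of -43.3 points, and 0.511% of the 11351 genes were lower by 40 points or more in Prdm12 neurons. In neurons with 5000 or more genes the ranges did not overlap, with 0.385 to 24.6 CPM in 6 Prdm12 neurons and 38.7 to 720 CPM in the 32 others. Among all genes, 2 of 11351 (0.0176%) lay wholly lower in the 6 Prdm12 neurons in this way.

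Gfra2 was also low in the Prdm12 neurons. They held 0.384, 0.219, 0.0898, 3.15, 0, 0 and 0.0952 CPM, in the same order, which were at most 45 counts. Detection was 0 of 7, which allows a share of up to 42.9%, against 29 of 65 others, a difference of -44.6 points, or -37.9 points after TMM scaling, which rescales each neuron by its bulk of genes. Restricted to 5000 or more genes it was 0 of 6 against 24 of 32, a difference of -75.0 points, and 1.92% of genes were lower by 40 points or more there.

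Other receptors were as common or more common in Prdm12 neurons. Ntrk3 held 91.2, 54.8, 1322, 0.0700, 17.2, 662 and 8.37 CPM in the same 7 neurons, and was detected in 5 of 7 and 21 of 65 others, a difference of 39.1 points that fell short of the size used here. With 5000 or more genes it was 5 of 6 against 13 of 32, a difference of 42.7 points, where 4.37% of genes were higher by 40 points or more. Prdm12 neurons were uneven in Ntrk3: AM228 and AM303 had more of it than any P2rx2 neuron, and AM237 had 1 count.

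Ngfr was detected in all 7 Prdm12 neurons, at 975, 935, 398, 812, 274, 371 and 108 CPM, and in 46 of 65 others. Its median was 398 CPM against 64.4 CPM. Among neurons with 5000 or more genes the medians were 605 and 124 CPM, and the ranges overlapped, since the others reached 961 CPM. The satellite glia sum was 295 CPM at the median Prdm12 neuron, 1440 CPM at the median P2rx2 neuron and 1431 CPM at the median of those with neither, and with 5000 or more genes 384, 1355 and 204 CPM. Of its 7 markers, 4 were detected in at least 50% of the neurons of every class. The Schwann cell sum had medians of 713, 756 and 574 CPM in the 3 classes. The part of these sums in the Ngfr level was not tested.

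Ret was detected in 7 of 7 Prdm12 neurons and 55 of 65 others, with medians of 596 and 309 CPM, and with 5000 or more genes 440 and 393 CPM. Gfra1 was detected in 6 of 7 and 29 of 65, a difference of 41.1 points, when 18.7% of all genes were higher by 40 points or more, and of 10.6 points after TMM scaling. Counting neurons with 5000 or more genes, it was 6 of 6 against 22 of 32, a difference of 31.2 points, and the median was lower in Prdm12 neurons, 30.3 against 39.1 CPM. Gfra4 was detected in 6 of 7 and 31 of 65, and with 5000 or more genes in 6 of 6, at 32.6 to 78.5 CPM, and in 24 of 32. Of the Prdm12 neurons, 5 carried exactly Gfra1 and Gfra4 with Ret, AM296 carried Gfra3 as well, and AM304, the one with fewest genes (4722), had no co-receptor at 10 CPM.

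The 39 P2rx2 neurons were compared with the 26 neurons that had neither marker. Ntrk2 was detected in 37 of 39 (94.9%, 82.7 to 99.4%) and 19 of 26 (73.1%, 52.2 to 88.4%), with medians of 255 and 80.9 CPM. Ret was detected in 37 and 18, and Ntrk2, Ngfr and Ret together in 32 of 39 and 11 of 26. These gaps were absent or small with 5000 or more genes, where Ntrk2 and Ret were each detected in 26 of 26 and 6 of 6 and the trio in 23 of 26 and 5 of 6. The medians there were 293 and 199 CPM for Ntrk2 and 411 and 379 CPM for Ret. Gfra4 was the 1 receptor past 40 points, in 25 of 39 and 6 of 26, a difference of 41 points, and 7.27% of genes were higher by 40 points or more while the median gene was higher by 20.5 points. With 5000 or more genes Gfra4 was in 21 of 26 and 3 of 6, a difference of 30.8 points, and after TMM scaling the difference over all was 17.2 points.

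Ntrk3 went the other way. In neurons with 5000 or more genes it was detected in 8 of 26 P2rx2 neurons and 5 of 6 with neither marker, a difference of -52.6 points, and 0.59% of genes were lower by 40 points or more. The medians were 1.46 and 156 CPM, and the ranges overlapped from 0.0919 to 478 CPM. Over all 65 neurons the difference was -16.7 points. Read from the other side, the Prdm12 neurons were first included. Among those with 5000 or more genes, P2rx2 was detected in 8 of 18 Ntrk3 neurons and 18 of 20 without Ntrk3. That difference was -45.6 points, and 0.115% of genes were lower by 40 points or more in Ntrk3 neurons. Without the Prdm12 neurons, P2rx2 was in 8 of 13 and 18 of 19, which fell short of 40 points.

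Within the P2rx2 neurons the receptor levels were set beside that of P2rx2, which ran from 10.7 to 617 CPM. Among the 26 with 5000 or more genes, the Spearman correlation with P2rx2 was 0.47 for Ntrk2, 0.28 for Ngfr and 0.23 for Gfra4. It was -0.44 for Gfra1, -0.46 for Gfra2, -0.36 for Ret, -0.30 for Gfra3 and -0.15 for Ntrk3. No value over all genes stands beside these correlations. Over the 32 neurons of that gene number without Prdm12, it was 0.47 for Ntrk2, -0.18 for Gfra1 and -0.34 for Gfra2. The 7 of these neurons without Gfra1 had 96.5 to 313 CPM of P2rx2 with a median of 191 CPM, while the 19 with Gfra1 had a median of 43.2 CPM and a range of 10.7 to 377 CPM. These are descriptions over neurons whose libraries differ in depth and gene number.

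The ligands of these receptors were mostly not found in the neurons themselves. Bdnf was the exception, detected in 57 of 72 neurons (79.2%, 68 to 87.8%) with a median of 153 CPM and a highest value of 1553 CPM. Gdnf was detected in 2 neurons. Ntf3, Ntf5, Nrtn, Artn and Pspn, which encode NT-3, NT-4, neurturin, artemin and persephin, were detected in 0 of 72 neurons, which allows a share of up to 4.17%, and none of the 5 exceeded 5.36 CPM. Bdnf was detected in 7 of 7 Prdm12 neurons and 50 of 65 others, and in 6 of 6 and 31 of 32 with 5000 or more genes.

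Of 15 co-receptors and partner proteins, 13 were detected in at least 1 neuron. The most common were Maged1 in 70 neurons and Bex3 in 62, both encoding proteins that bind p75, Ncam1 in 60, an adhesion molecule that can also bind GDNF with GFRα1, and Kidins220 in 53, a scaffold of Trk receptors. Lingo1, a partner of p75, was detected in 7 of 7 Prdm12 neurons and 16 of 65 others, a difference of 75.4 points, and in 6 of 6 against 15 of 32 with 5000 or more genes. Bex1, a relative of Bex3, was in 0 of 7 and 32 of 65, a difference of -49.2 points, and with 5000 or more genes in 0 of 6 and 17 of 32 (-53.1 points). Among those with 5000 or more genes, Bex3 was in 3 of 6 Prdm12 neurons and 32 of 32 others, a difference of -50 points. Of all genes, 18.7% were higher and 0.511% lower by 40 points or more in Prdm12 neurons. With 5000 or more genes these shares were 4.37% and 1.92%. Between P2rx2 neurons and those with neither marker none of the 15 passed 40 points, where 7.27% of all genes were higher by that size.

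Of 19 signal adaptors, 18 were detected, led by Shc2 and Ptpn11 in 55 neurons each, Sos1 in 51 and Grb2 in 48, which link activated receptors to the Ras pathway. In Prdm12 neurons 6 adaptors were higher by 40 points or more and none lower, with a median of 26.8 points over the 19 against 22.6 over all genes, of which 18.7% were higher and 0.511% lower by that size. They were Shc1, Frs3, Plcg1, Sh2b1, Dok4 and Rapgef1. With 5000 or more genes Plcg1, the phospholipase C recruited by Trk receptors, was the 1 left, in 6 of 6 Prdm12 neurons and 15 of 32 others (53.1 points), against 4.37% of all genes. Gab1 and Crk, both docking or adaptor proteins, were more common in P2rx2 neurons than in those with neither marker, by 47.4 and 44.9 points. Of all genes, 7.27% were higher by 40 points or more in that comparison. With 5000 or more genes the differences were 46.2 and 50 points, where 4.27% of all genes were higher by that size. Dok4, an adaptor of Ret, was lower there by 42.3 points, in 15 of 26 against 6 of 6, as 0.59% of all genes were lower by 40 points or more.

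Among 5 negative regulators, 2 Sprouty genes were more common by 40 points or more in Prdm12 neurons, as were 18.7% of all genes, and 4.37% with 5000 or more genes. Spry2 was in 7 of 7 and 20 of 65 (69.2 points), and in 6 of 6 and 10 of 32 with 5000 or more genes (68.8 points). Spry4 was in 5 of 7 and 6 of 65 (62.2 points), and in 5 of 6 and 5 of 32 (67.7 points). Both encode inhibitors of signalling from receptor tyrosine kinases to the MAP kinases. Spry1 was in 1 neuron, and the ubiquitin ligases Cbl and Cblb were in 53 and 28.

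The ganglion markers other than Prdm12 and P2rx2 gave the setting of these classes. Prrxl1, a transcription factor of neural crest-derived sensory neurons, was detected in 7 of 7 Prdm12 neurons and 22 of 65 others, and Hoxb5, a homeobox gene of the nodose side, in 1 of 7 and 52 of 65. With 5000 or more genes Prrxl1 was in 6 of 6 and 15 of 32, and Hoxb5 in 1 of 6 and 31 of 32. P2rx3, another nodose marker examined, was in 3 of 7 Prdm12 neurons and 24 of 65 others. It was in 3 of 6 and 18 of 32 with 5000 or more genes, so it did not separate them as Hoxb5 did. Runx1 and Tac1, which encodes substance P, were examined as jugular markers. Runx1 was in 5 of 7 and 45 of 65, and Tac1 in 3 of 7 and 40 of 65. Restricted to 5000 or more genes, Runx1 was in 4 of 6 and 31 of 32, and Tac1 in 3 of 6 and 21 of 32. Neither was more common in the Prdm12 neurons of that set, so they did not mark this class as Prrxl1 did. With 5000 or more genes, Tac1 was in 15 of 26 P2rx2 neurons and 6 of 6 with neither marker, a difference of -42.3 points. P2rx3 was in 17 of 26 and 1 of 6, a difference of 48.7 points. Of all genes, 0.59% were lower and 4.27% higher by 40 points or more in that comparison. Phox2a was detected in 5 neurons.

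The genes whose CPM followed each receptor most closely were sought by Spearman correlation over 72 neurons among 9158 genes. For Ntrk2 they were H2-K1, Rbm6, Sema3b, Mllt3 and Scd1, at 0.60 each, against a median gene at 0.20. For Ntrk3 they were Gm765 (0.62), Pcdh7, Gabbr2, Ppm1j and Ly6h (0.56), against a median gene at 0.08. Gabbr2, a GABA-B receptor subunit, was detected in 50 of 72 neurons and in all 26 Ntrk3 neurons, as were 5.64% of the 11351 genes. It was picked by its correlation in these same neurons, and its rank was 47 in those with 5000 or more genes.

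For Ngfr the list was Sema5a (0.79), Alg2, Pla2g6, Ache and Etfdh (0.77), against a median gene at 0.43. For Ret it was 9330182L06Rik (0.67), Mindy1, Csrnp3, Vwa5a and Ackr1 (0.63), against 0.30. For Gfra1 it was Ap5z1 (0.68), Nqo1, Lipa, Unc119b and Elovl6 (0.66), against 0.37. For Gfra2 it was Klhl13 (0.66), Pygl, Gpr160, Tmem233 and Gpr35 (0.64), against 0.28, and for Gfra4 Gpr137 (0.75), Gm6123, Fkbp8 and Gm49322 (0.74), against 0.42.

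The neurons share their differences in depth and gene number across all genes, and the lists changed when gene number was restricted. Within the 38 neurons with 5000 or more genes, Gm765 and Ppm1j remained among the 5 genes most like Ntrk3, at 0.67 and 0.66, and Klhl13 and Tmem233 among those most like Gfra2, at 0.75 and 0.73. Sema5a remained for Ngfr at 0.81 and Ackr1 for Ret at 0.68. None of the 5 remained for Ntrk2, Gfra1 or Gfra4. For Ntrk2 the list became Abcb1a (0.71), Gria3, Fhod3, Hoxb6 and Hoxb5 (0.64). Gfra3, detected in 4 neurons, was not searched.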

How the data were processed

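Per the labels, mRNA of single DiI-traced neurons was amplified and sequenced. The deposited table holds raw read counts per gene in 84 neurons, made with featureCounts per the submitters' processing notes. The aligner, genome build, annotation, strand setting and any molecular identifiers were not given in the sources used here. Identifiers were matched to GENCODE M21 (GRCm38), 50376 of 50686 genes, which also gave coordinates and exon lengths and need not be the annotation the authors used.

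CPM were computed from each neuron's total. The 12 neurons with fewer than 5000000 counts (576966 at the lowest) were left out. The receptors, lists, classes and size rule of 40 points were chosen with earlier results of these data known, among them the use of Ntrk2 as a nodose marker. Named genes are the receptors, Prdm12, P2rx2, all ligands, the ganglion markers, in each other list the 4 most common genes and those past 40 points, and the 5 genes most like each receptor. Items withheld from this text are not reported here. Intervals are exact (Clopper-Pearson, 95%), limits for 0 are 3 counts, and both cover counting error only. Calculations were tested on simulated data. Python 3.11.15, numpy 2.4.6, pandas 2.3.3, scipy 1.17.1 and matplotlib 3.10.9 were used, and R 4.3.3 with edgeR 4.0.16 for TMM factors alone.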

Additional observations from a re-analysis of the deposited data

Results flagged for a closer look

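The 12 neurons with fewer than 5000000 counts entered no comparison, and some of them carried these receptors. Ret was detected at 10 CPM in 66.7% of them (8 of 12), with a highest value of 849 CPM. Ntrk2 was detected in 50% (6 of 12) and reached 8845 CPM, above every neuron of the comparisons. Ngfr was detected in 41.7% (5 of 12) and Ntrk3 in 33.3% (4 of 12). In the 72 neurons kept the shares were higher, at 86.1% for Ret, 81.9% for Ntrk2, 73.6% for Ngfr and 36.1% for Ntrk3. The lowest total among the 12 neurons left out was 576966 counts, so that few reads lie behind a value near 10 CPM.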

How the results depend on the processing

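No paired analysis was possible because the labels give 1 group. Under other settings 203 values kept within their intervals, direction or order, 61 moved and 1 reversed. Thinning to 5000000 counts, all 84 neurons, and leaving out identifier block 1 or 2 moved no value past its interval. Scaling by the longest transcript kept the rank of each of the 8 receptors. The levels per kb themselves changed, as the Ntrk2 median went from 8.55 to 18.9 CPM per kb. These blocks are 16, 11 and 45 neurons parted by gaps of over 30 in the neuron numbers, and no label calls them batches.

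Calling a gene detected at 1 count gave shares of 100% for Ntrk2, 90.3% for Ntrk3, 98.6% for Ngfr and Ret, 77.8% for Gfra1, 80.6% for Gfra2, 29.2% for Gfra3 and 83.3% for Gfra4. It gave 98.6% of Ret neurons with a co-receptor, 90.3% of neurons with both Ntrk2 and Ntrk3, 65.3% with Gfra1 and Gfra2, and a difference of 0 points for Ntrk2 in Prdm12 neurons, which were then 22. At 50 CPM the shares were 68.1% for Ntrk2, 58.3% for Ngfr, 25% for Gfra1, 23.6% for Gfra2, 18.1% for Gfra4, 58.2% for Ret with a co-receptor and 12.5% for Gfra1 with Gfra2. The P2rx2 difference in Gfra4 was then 10.4 points, and the Prdm12 difference in Gfra1 reversed to -26.1 points, in 0 of 3 against 18 of 69. Fewer neurons pass either marker at that threshold.

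In neurons with 5000 or more genes the shares were 92.1% for Ntrk2, 89.5% for Ngfr, 100% for Ret, 73.7% for Gfra1, 63.2% for Gfra2, 78.9% for Gfra4, 94.7% for Ret with a co-receptor and 44.7% for Gfra1 with Gfra2, and the Prdm12 difference in Gfra2 was -75.0 points. Without identifier block 3 they were 92.6% for Ntrk2 and Ngfr, 63% for Gfra1 and 40.7% for Gfra1 with Gfra2. Scaling by TMM, whose factors ran from 0.0120 to 2.83, put Ntrk2 in 0 of 6 Prdm12 neurons and 57 of 66 others, a difference of -86.4 points. Below 40 points under TMM came the Prdm12 differences in Gfra1 (10.6) and Gfra2 (-37.9) and the P2rx2 difference in Gfra4 (17.2). With all 84 neurons those of Prdm12 in Ntrk2 (-37.7) and Gfra2 (-39.0) did so. At 1 count the Prdm12 differences in Gfra2 (-4.73) and Gfra1 (12.4) and the P2rx2 difference in Gfra4 (34.8) did, and at 50 CPM that of Prdm12 in Gfra2 (-24.6). The P2rx2 difference in Gfra4 was also 37.2 points after thinning, 39.8 without identifier block 2 and 23.8 without block 3. The cause of these shifts was not tested.

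Of the 5 genes most like each receptor, neurons with 5000 or more genes shared 0 for Ntrk2, Gfra1 and Gfra4, 1 for Ngfr and Ret and 2 for Ntrk3 and Gfra2. Pearson's r of log2(CPM + 10) shared 3 for Ntrk2 and Ntrk3, 2 for Ngfr and Gfra4, 1 for Ret and Gfra1 and 4 for Gfra2.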
